A study of Mus musculus with 11 samples.

Results

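Transcripts of B cells and of the immunoglobulins they make were followed in 11 whole kidneys of young lupus-prone mice. The genes were 9 chosen by name: Igkc and Igj, which encode parts of the antibody molecule, the B cell surface genes Ms4a1, Cd22, Cd79a and Cd79b, the signalling genes Blk and Bank1, and the transcriptional coactivator gene Pou2af1. Of these, 8 had a row among the 16475 Entrez genes of the value table, all 8 were among the 14419 genes tested, and Cd79a was not analysed here. Igkc was listed under its older symbol Igk-C (Entrez 16071), and Igj (16069) is the gene now called Jchain.

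The kidneys came from 7 NZB/W mice aged 6 weeks and 4 NZW/BXSB mice aged 8 weeks, all prenephritic and without proteinuria, and the labels list no treatment. By the study's methods the NZB/W F1 mice were females, the NZW/BXSB F1 mice were males, and the mice were perfused with saline through the heart before harvest. The study states that NZW/BXSB males carry Yaa, a Y-linked locus in which the Tlr7 gene is duplicated. Strain, sex, age and Yaa ran together and cannot be told apart, and neither can any difference in array processing between the strains. No label ties a kidney to a litter or batch, and the precision of every value is limited by how few arrays there are.

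B cells carry an antigen receptor, a membrane immunoglobulin paired with the signalling chains that Cd79a and Cd79b encode, and coreceptors such as the product of Cd22 tune its signal. When a B cell turns into a plasma cell it shuts off much of its surface program and makes very large amounts of immunoglobulin transcripts, so the chain genes and the surface genes report on different stages of one lineage. In the NZB/W and NZW/BXSB models autoantibodies lodge in the glomeruli later in life, and B cells and plasma cells can settle in nephritic kidneys.

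The 8 members did not share one direction. Igkc and Igj were lower in NZB/W than in NZW/BXSB, 6.62-fold and 2.76-fold, while Cd22 and Blk were higher, 1.89-fold and 1.84-fold, and Bank1 at least 1.81-fold higher. Ms4a1 was also called higher, though it lay at background level in both strains, Cd79b was lower and Pou2af1 was not called. Values are log2 expression on a common scale, set by quantile normalization over the 11 arrays, and differences are NZB/W minus NZW/BXSB, tested with limma over all 14419 genes. On this scale 69.4% of all tested genes were called at a Benjamini-Hochberg adjusted p below 0.05, 33.3% as higher and 36.1% as lower in NZB/W. Of the 8 members 7 were called, 4 higher and 3 lower. In 6 members no kidney of one strain reached the values of the other, beside 54.6% of all tested genes, and 5 passed the study's limits (a fold of 1.4 or more, or of 0.7 or less, with an adjusted p no higher than 0.001), beside 27.9%. With 8 genes no weight is put on these counts, and the members are described below by their own values.

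The arrays as deposited lay at different levels in the strains, with medians over the tested genes from 7.36 to 7.40 in NZB/W and from 8.05 to 8.14 in NZW/BXSB, and the median gene differed by -0.69. On that scale 5.56% of all tested genes were higher and 84.0% lower in NZB/W. Of the members, 4 were higher and 4 lower there. The sign of 7 members was the same on both scales, and that of Pou2af1 turned. In whole tissue, fewer cells of a type and less RNA per cell cannot be told apart. On the common scale, podocyte and tubule markers had list means from 11.93 to 12.15 in the NZB/W kidneys. They ran from 11.81 to 11.86 in the NZW/BXSB kidneys, without overlap. As deposited 8 of these 10 markers were lower in NZB/W and 0 higher, with a median difference of -0.35. Their part in the members' differences was not tested.

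The promoters below belong to the member that was lower in NZB/W and has an entry in the RefSeq promoter table (Igj), the member with the widest excess in NZB/W (Bank1), and the member in which letters of the octamer were found (Pou2af1). Each runs from 250 bases before to 50 bases after the gene's start, 5′ to 3′ on the gene's strand, in the build GRCm38.p6. Capitals mark TGCAAAT, part of the octamer ATGCAAAT through which Pou2af1 protein and its partner factors Pou2f1 and Pou2f2 act on immunoglobulin promoters, and GAGGAA, a core of sites of the factor PU.1.
Igj promoter, minus strand, chr5:88527848-88528147: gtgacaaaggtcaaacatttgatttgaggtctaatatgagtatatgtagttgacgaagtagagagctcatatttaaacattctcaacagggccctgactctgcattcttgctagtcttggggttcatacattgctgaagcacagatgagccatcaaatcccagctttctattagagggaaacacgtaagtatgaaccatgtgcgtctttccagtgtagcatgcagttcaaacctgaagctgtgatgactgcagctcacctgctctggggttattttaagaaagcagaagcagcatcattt
Bank1 promoter, minus strand, chr3:136326017-136326316: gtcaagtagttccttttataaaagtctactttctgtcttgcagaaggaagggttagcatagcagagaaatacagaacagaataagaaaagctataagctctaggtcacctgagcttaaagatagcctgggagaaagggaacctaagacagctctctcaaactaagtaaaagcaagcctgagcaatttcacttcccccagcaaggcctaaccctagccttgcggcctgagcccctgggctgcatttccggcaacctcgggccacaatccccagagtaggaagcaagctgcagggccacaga
Pou2af1 promoter, plus strand, chr9:51213440-51213739: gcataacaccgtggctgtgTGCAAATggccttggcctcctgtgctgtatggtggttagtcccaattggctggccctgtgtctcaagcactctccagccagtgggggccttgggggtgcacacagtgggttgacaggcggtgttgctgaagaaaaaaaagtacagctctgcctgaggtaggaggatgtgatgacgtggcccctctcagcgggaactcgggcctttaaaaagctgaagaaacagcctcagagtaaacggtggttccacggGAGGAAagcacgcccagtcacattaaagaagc
Both strands were searched in the 5 members with an entry, which also include Cd22 and Cd79a. The full octamer was in none of them, beside 1.74% of the 32851 promoters of the table, and ATGCAAA, which 4.63% hold, was in none either. TGCAAAT, which lies within the octamer, was found in Pou2af1 from base 20 of the printed run, and 4.02% of all promoters hold it. GAGGAA stood in Pou2af1 from base 269 and on the other strand of Cd79a, and 28.3% of all promoters hold it, so such a match is common.

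Igkc, the constant region of the kappa light chain (chromosome 6), had the widest gap of the members. In NZB/W it ranged from 6.78 to 8.85 with a median of 8.33, and in NZW/BXSB it stood at 11.46, 9.39, 10.83 and 11.17 in replicates 1 to 4. NZB/W replicates 6 and 7 (6.83 and 6.78) and NZW/BXSB replicate 2 were the low kidneys of their strains, and the strains did not overlap. The means were 7.98 ± 0.83 (SD, n = 7) and 10.71 ± 0.92 (SD, n = 4), which differed by -2.73 (95% interval -3.69 to -1.77, limma adjusted p = 9.72e-05). Without the 3 low kidneys it was -2.69.

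Igj, the J chain that links IgA and IgM units into polymers (chromosome 5), had the same low kidneys. It ran from 6.33 to 8.16 in NZB/W with a median of 7.89, and was 9.75, 8.01, 9.26 and 9.13 in NZW/BXSB replicates 1 to 4. Replicates 6 and 7 of NZB/W were at 6.58 and 6.33, and NZW/BXSB replicate 2 fell among the other NZB/W kidneys, so the strains overlapped. Means of 7.57 ± 0.77 (SD, n = 7) and 9.03 ± 0.73 (SD, n = 4) gave a difference of -1.47, with an interval from -2.31 to -0.62 (limma adjusted p = 0.00446). This call did not pass the study's limits. Without the 3 low kidneys the difference was -1.36.

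**Figure D1:**
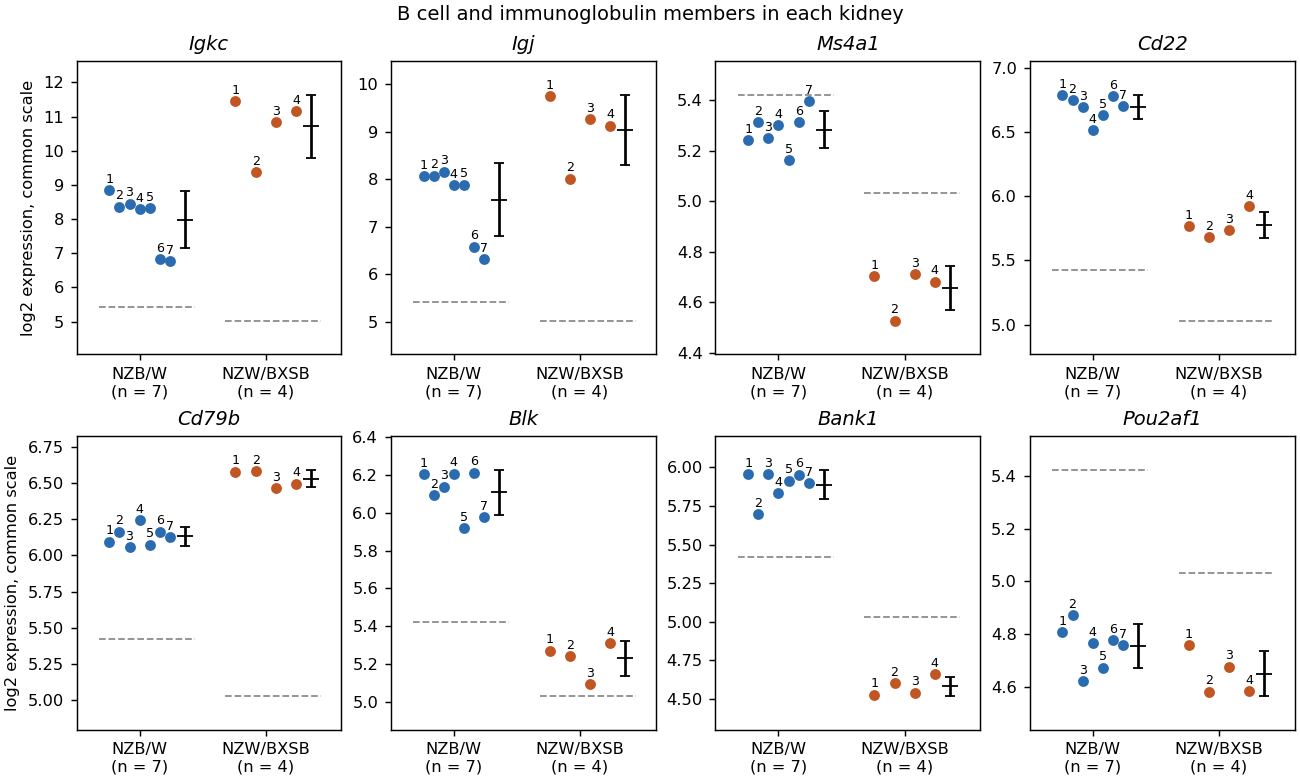
Log2 expression on the common scale of the 8 members in each kidney, with a separate vertical axis for each gene. Points are kidneys with their replicate numbers, black marks show the mean and SD of each strain, and dashed lines mark the level below which 95% of the genes without a baseline call lie in that strain. Igkc and Igj spread over 1.74 to 2.07 log2 units within a strain, while the other 6 members span at most 0.29.

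Among the surface genes, Cd22, an inhibitory lectin that binds sialic acid and dampens receptor signals (chromosome 7), was higher in NZB/W. Its values ran from 6.52 to 6.78 with a median of 6.70 in NZB/W, and were 5.77, 5.68, 5.74 and 5.92 in NZW/BXSB. Every NZB/W kidney lay above every NZW/BXSB kidney. The difference was 0.92 with an interval from 0.78 to 1.05 (limma adjusted p = 3.13e-08), and 0.28 as deposited.

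Ms4a1, the CD20 gene (chromosome 19), was also higher in NZB/W and did not overlap, from 5.16 to 5.40 with a median of 5.30 against 4.70, 4.53, 4.71 and 4.68. The difference was 0.63 with an interval from 0.51 to 0.75 (limma adjusted p = 3.47e-07), and 0.24 as deposited. Both means lay under the level of 5.42 in NZB/W and 5.03 in NZW/BXSB below which 95% of genes without a baseline call fell. That level was itself higher in NZB/W, so background limits both the size and the direction of the difference, and no fold is given.

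Cd79b, a signalling chain of the antigen receptor (chromosome 11), went the other way from Cd22 and Ms4a1. It ranged from 6.06 to 6.24 with a median of 6.12 in NZB/W, below all NZW/BXSB kidneys, which were at 6.58, 6.58, 6.47 and 6.50. The difference was -0.40, from -0.51 to -0.29 (limma adjusted p = 9.47e-06), a 1.32-fold change that did not pass the study's limits. As deposited it was -1.06.

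Both members that act inside the cell below the receptor were higher in NZB/W. Blk, a Src family kinase of B cells (chromosome 14), ran from 5.92 to 6.21 with a median of 6.14 in NZB/W and was 5.27, 5.24, 5.09 and 5.31 in NZW/BXSB. No kidney overlapped, and the difference was 0.88, from 0.73 to 1.03 (limma adjusted p = 1.01e-07), against 0.33 as deposited. Bank1, a scaffold protein that brings kinases to the receptor (chromosome 3), was called above baseline in NZB/W and not in NZW/BXSB. It ran from 5.70 to 5.96 with a median of 5.91 in NZB/W, and was 4.53, 4.60, 4.54 and 4.66 in NZW/BXSB, all 4 below every NZB/W kidney. The difference was 1.30, from 1.18 to 1.43 (limma adjusted p = 7.04e-10), and 0.89 as deposited, and the fold is a lower bound because the NZW/BXSB mean lay in the background.

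Pou2af1, the coactivator that B cells and plasma cells need for germinal centres and octamer-driven transcription (chromosome 9), was near background in both strains. It ran from 4.62 to 4.87 with a median of 4.77 in NZB/W and stood at 4.76, 4.58, 4.68 and 4.59 in NZW/BXSB, with overlap. The difference was 0.10, from -0.02 to 0.23 (limma adjusted p = 0.129). Scaling decided its direction, with -0.22 as deposited (adjusted p = 0.00392), 0.47 after median centring (adjusted p = 6.20e-06) and 0.30 with quantile normalization over the tested genes alone (adjusted p = 2.38e-04).

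Heavy and light chain genes other than Igkc were taken from every further row that names an immunoglobulin gene, 17 in all. Their symbols are those of RefSeq by Entrez number, since the files list several under older names, such as Igh-2 for Igha, Igh-1b for Ighg2c and Gm189 for Igkv4-57. Of these, NZB/W was lower in 10 and higher in 3, and 4 were not called, to be read beside the 36.1% lower and 33.3% higher among all tested genes. Their median difference was -0.35, beside -0.01 for all tested genes. As deposited 12 were lower, 1 higher and 4 not called. In 7 of the 17 the strains did not overlap (54.6% of all tested genes), and 6 passed the study's limits (27.9%). Constant and variable regions of a family share sequence and differ in alleles between strains, and whether the probes match the alleles of these strains was not tested.

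Among the 17 rows Ighg2c and Igha had the widest differences. Ighg2c, a heavy chain of the IgG class that C57BL/6 mice carry where other strains carry Ighg2a, was not called above baseline in NZB/W, where it ran from 4.73 to 4.98 with a median of 4.85. In NZW/BXSB it was 8.37, 7.31, 7.67 and 9.54, so all 4 kidneys were far above NZB/W and also far apart from one another. The difference was -3.36 (limma adjusted p = 3.26e-07), at least 6.96-fold lower in NZB/W. The study describes IgG2a autoantibodies in NZB/W females, but which of these alleles either strain carries is not stated in the sources used here. Whether the difference is one of allele or of level was not tested.

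Igha, the IgA heavy chain, was 3.41-fold lower in NZB/W and followed Igkc and Igj kidney by kidney. It ran from 7.63 to 9.40 with a median of 8.74 in NZB/W, with replicates 6 and 7 at 7.97 and 7.63, and was 10.81, 9.37, 10.63 and 10.72 in NZW/BXSB. NZW/BXSB replicate 2 fell just below the highest NZB/W kidney, and the other 3 lay above all of them. The difference was -1.77, from -2.48 to -1.05 (limma adjusted p = 3.19e-04).

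Ighg1, the IgG1 heavy chain, was 2.01-fold lower in NZB/W with little spread, from 6.13 to 6.39 with a median of 6.20 against 7.24, 7.25, 7.15 and 7.34. The difference was -1.01 (limma adjusted p = 8.87e-09), and the 3 kidneys low in Igkc were not low in it. Ighg2b differed by -0.54 (limma adjusted p = 0.00716), and by -0.35 without NZW/BXSB replicate 3, its highest kidney at 7.18. Ighg3 was at 7.04 ± 0.18 (SD, n = 7) and 7.26 ± 0.25 (SD, n = 4) and was not called (-0.22, limma adjusted p = 0.0991), but was called lower in 4 of 22 alternative settings, namely as deposited (-0.90), without NZB/W replicate 2, without NZW/BXSB replicate 2 and without the 3 low kidneys. Ighm, the heavy chain of IgM that naive B cells and early plasma cells make, differed by -0.35 (limma adjusted p = 0.0420), and lost that call in 10 of 22 alternative settings, among them the omission of any 1 of NZB/W replicates 3, 4, 6 and 7 or of NZW/BXSB replicates 1, 3 and 4.

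Light chain rows did not share one direction. Of the kappa variable genes, Igkv1-117 (-0.93), Igkv6-15 (-0.91), Igkv14-111 (-0.56) and Igkv15-103 (-0.55) were lower in NZB/W, and so was the heavy chain variable gene Ighv1-14 (-0.33), which turned to 0.11 after median centring. In NZB/W the means of Igkv1-117, Igkv6-15 and Ighv1-14 lay at background level. Igkv4-57 was 2.62-fold higher in NZB/W, from 8.78 to 10.42 with a median of 9.61 against 8.32, 8.21, 7.98 and 8.36, with no overlap (1.39, limma adjusted p = 1.77e-04), and was also higher as deposited. Igkv12-46 (0.36) and the lambda constant gene Iglc2 (0.47) were higher on the common scale, and their differences as deposited were -0.17 and -0.20, both without a call. Igkv12-46 also lost its call without NZW/BXSB replicate 1 (adjusted p = 0.0697) or 2 (0.0893), and without the 3 low kidneys (0.0634). Iglc1 (0.06), Iglv1 (0.31) and Igkv4-81 (-0.09) were not called, and the sign of each depended on the scaling.

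**Figure D2:**
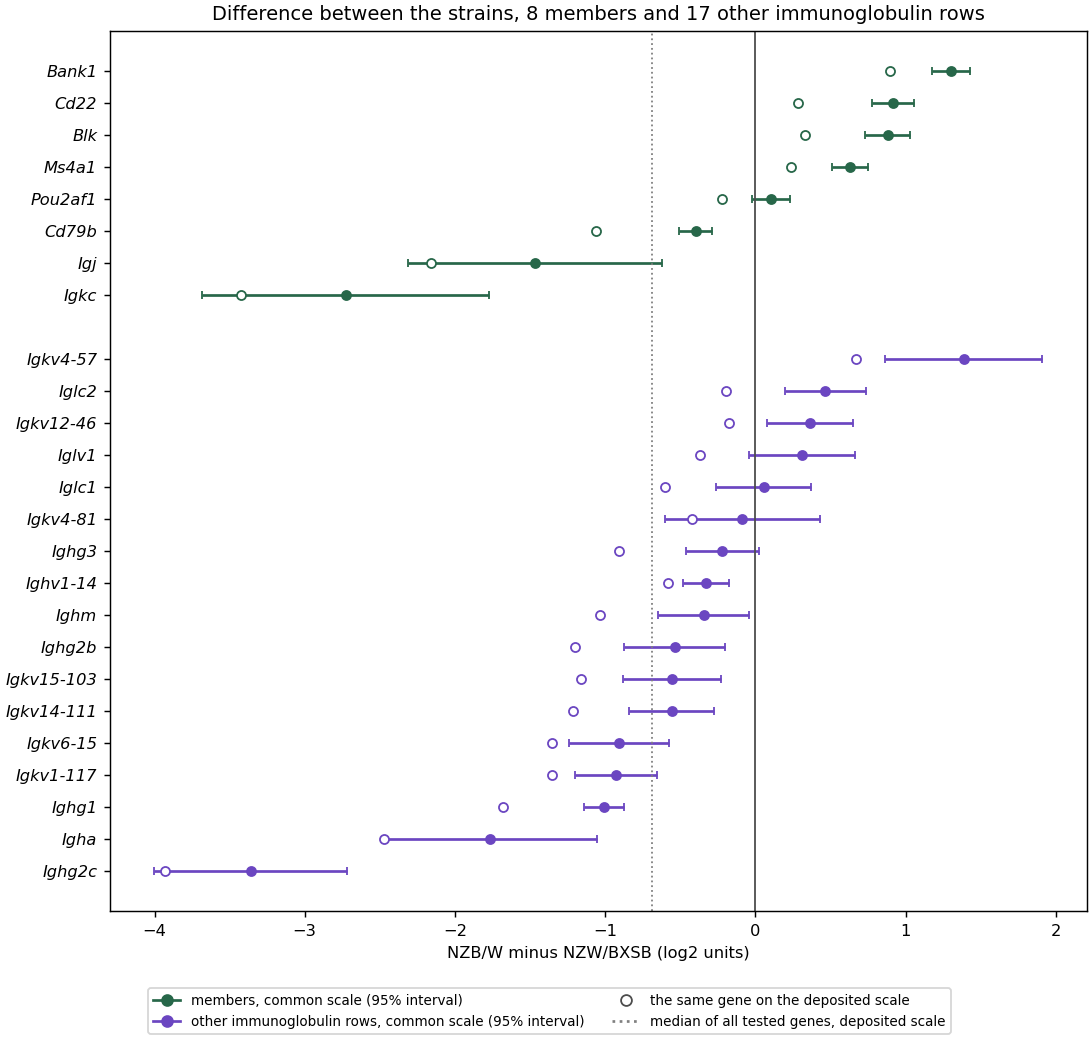
Difference between the strains, given as NZB/W minus NZW/BXSB (log2 units), for the 8 members (green) and 17 other immunoglobulin rows (purple). Filled points with bars are the common scale with 95% intervals, open points the deposited scale, and the dotted line the median of all tested genes as deposited (-0.69). Ighg2c, Igkc, Igha and Igj lie farthest to the left, and Igkv4-57 and Bank1 farthest to the right.

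Mice of one strain differed far more in Igkc and Igj than in the other 6 members. Ms4a1 and Pou2af1 lay at background level in both strains and Bank1 in NZW/BXSB, and a small spread there does not show that mice were alike. The SD of Igkc exceeded that of 99.8% of all tested genes within NZB/W, and that of Igj exceeded 99.7%, against a median SD of 0.121. Within NZW/BXSB, where the median SD was 0.0821, they exceeded more than 99.9%. The 6 other members had SDs from 0.06 to 0.12 in NZB/W, each below the median, and from 0.06 to 0.10 in NZW/BXSB, where Cd22, Blk, Ms4a1 and Pou2af1 lay above the median and Cd79b and Bank1 below it. Not all chain genes spread widely, since the SD of Ighg1 exceeded that of 32.0% of tested genes within NZB/W and 47.6% within NZW/BXSB.

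The deviations of Igkc from the strain means were nearly those of Igha (Pearson r = 0.97 over 11 kidneys) and Igj (0.97), the closest genes of all tested. Cd86, a costimulatory ligand of B cells and other antigen-presenting cells, Ms4a6d and Mob1a followed with 0.92, 0.91 and 0.90. Of the other chain rows Igkv6-15 (0.87), Ighm (0.82) and Iglc2 (0.80) were the nearest. The remaining 6 members had r from -0.26 to 0.18. These values describe 11 kidneys of which 3 stand apart, and without those 3 r was 0.78 for Igha, 0.60 for Igj and 0.68 for Mob1a, but 0.05 for Cd86 and -0.68 for Ms4a6d. Igkv6-15 (0.58) and Iglc2 (0.54) were then lower and Ighm was at 0.01. Among the B cell members Blk (0.57) and Cd22 (0.51) then came near to Igj, and the others ran from -0.12 to 0.31. The genes nearest to Ms4a1 were Odf2 and 4930407I10Rik (0.92 each), Gper1 and Dusp26 (0.89 each) and Htr1d (0.88), and Ms4a1 lay at background level in both strains.

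**Figure D3:**
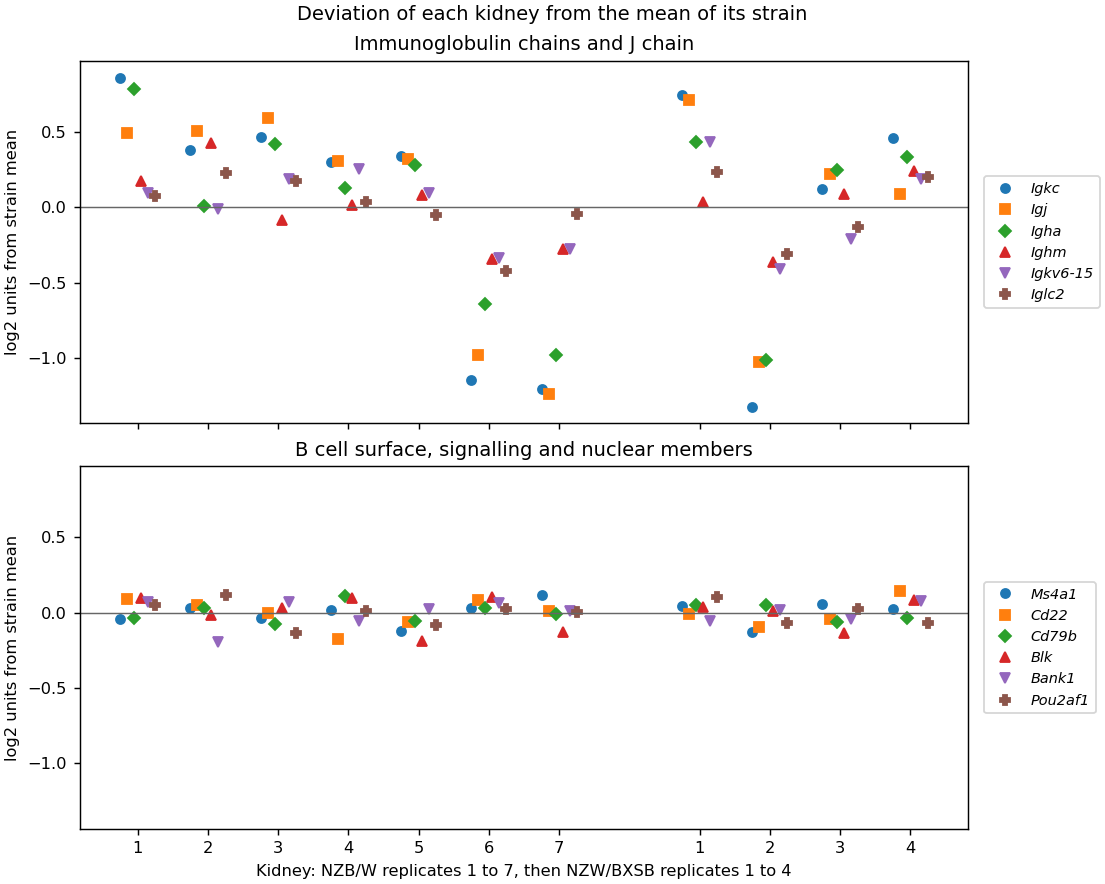
Deviation of each kidney from the mean of its strain, in log2 units, for 6 chain genes (upper panel) and 6 B cell members (lower panel), with the 7 NZB/W kidneys on the left and the 4 NZW/BXSB kidneys on the right. The upper panel holds Igkc and the chain genes nearest to it by Pearson r over 11 kidneys. Chain rows not shown had r to Igkc from -0.52 (Igkv1-117) to 0.51 (Igkv12-46). In NZB/W replicates 6 and 7 and NZW/BXSB replicate 2, Igkc, Igj and Igha fall well below their strain means, and the B cell members stay near 0.

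Markers of other cells were read in the same kidneys. The mean of 16 macrophage and dendritic cell markers was 7.66 and 7.83 in NZB/W replicates 6 and 7, below the 8.01 to 8.21 of the other 5, while in NZW/BXSB replicate 2 it was 7.55, close to replicate 1 (7.57), which had the highest Igkc. The mean of 26 genes of antigen receptor signalling was also lowest in the same 3 kidneys, by a small margin. It was 7.23 and 7.28 in replicates 6 and 7 of NZB/W (the other 5 from 7.31 to 7.34). In NZW/BXSB it was 7.27 in replicate 2 (the other 3 from 7.29 to 7.37). Other B cell lists did not share this pattern. The mean of 16 other B cell surface markers was 6.50 and 6.56 in NZB/W replicates 6 and 7 (6.50 to 6.58 in the other 5). In NZW/BXSB it was 6.22 in replicate 2 and 6.20 in replicate 1. The mean of 15 B cell transcription factors was 6.82 and 6.88 in NZB/W replicates 6 and 7 (6.79 to 6.90 in the other 5). It was 6.89 in NZW/BXSB replicate 2, the lowest of that strain. Kidney epithelial and podocyte markers were at 12.15 and 12.05 in replicates 6 and 7 of NZB/W, against 11.93 to 12.06 in the others. Lymph node stroma markers spanned 5.69 to 5.93 over all 11 kidneys, T cell markers 5.76 to 5.90, and the 13 genes of the plasma cell list 7.65 to 7.86. The part of these cells in the spread of Igkc and Igj was not tested.

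Counts in the lists that follow stand beside the 33.3% of all tested genes that were higher and the 36.1% that were lower in NZB/W. Of 16 other B cell surface markers tested, 10 were higher and 3 lower, and the median was 0.32. Fcmr, the receptor for IgM, was 2.72-fold higher (6.66 ± 0.13, SD, n = 7, against 5.22 ± 0.10, SD, n = 4) and also higher as deposited (0.89). Vpreb3 (0.63) and Fcer2a, the low-affinity IgE receptor CD23 (at least 1.36-fold, not called above baseline in NZW/BXSB), were higher on the common scale, with differences of -0.06 and -0.05 as deposited. Cd40, through which T cells help B cells, was 1.62-fold lower in NZB/W (-0.70). As deposited 1 of the 16 was higher and 8 lower.

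Genes of antigen receptor signalling were split evenly, 10 higher and 10 lower of 26, with a median of -0.09. The inhibitory IgG receptor gene Fcgr2b (0.63) and the Ras activator gene Rasgrp3 (0.46) were higher, both with a negative difference as deposited, and Vav1 and Pik3cd (at least 1.51-fold), both not called above baseline in NZB/W, were lower. As deposited 0 were higher and 24 lower.

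B cell transcription factors were split too, with 5 higher and 6 lower of 15 and a median of 0.01. Bcl6, the repressor that sets up germinal centre B cells and is also active in other tissues, was 2.99-fold lower in NZB/W (7.18 ± 0.18, SD, n = 7, against 8.77 ± 0.18, SD, n = 4), and Tcf3, an E protein, 2.05-fold lower. Ikzf3 was lower by a small margin (-0.29) near background. Pou2f1, a partner of Pou2af1, differed by 0.46, and by -0.24 as deposited, where 0 of the list were higher and 13 lower.

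The plasma cell list had 4 higher and 6 lower of 13 and a median of -0.10, with 0 higher and 12 lower as deposited. It includes Pigr, an epithelial receptor for polymeric immunoglobulin and not a plasma cell gene, which had the widest difference of the list (-1.08). Prdm1, the Blimp-1 gene, which drives plasma cell formation, was 1.67-fold higher in NZB/W (0.74) and not called as deposited. Xbp1 (-0.52), Ell2 (-0.60) and Edem1 (-0.55), which serve secretion and immunoglobulin processing and are also expressed by kidney cells, were lower. The 3 genes of the list without a call were Mzb1 (0.12), Derl3 (0.10) and Fkbp11 (-0.10).

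Of the markers of cells other than B cells, those of T cells had 7 higher and 4 lower of 16, with Cd5 (0.65, limited by background) higher and Cd4 (-0.70) and Lat (-0.74) lower. For macrophages and dendritic cells 6 of 16 were higher and 2 lower, with Flt3 3.52-fold higher and Itgam at least 1.53-fold lower, since its NZB/W mean lay at background level. For neutrophils 4 of 9 were higher, among them Ltf (1.22) and Ngp (1.17), and 2 lower. Red cell markers had 3 higher and 2 lower of 7, and fat cell markers 2 higher and 2 lower of 7. Of 3 lymph node stroma markers 1 was higher (Cxcl13, the B cell attractant, 0.42) and 1 lower (Madcam1, not called above baseline in NZB/W), and of 10 kidney markers 6 were higher and 2 lower. As deposited the counts of higher and lower genes were 1 and 12 (T cells), 1 and 11 (macrophages and dendritic cells), 3 and 5 (neutrophils), 0 and 4 (red cells), 1 and 5 (fat), 0 and 3 (lymph node stroma) and 0 and 8 (kidney).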

How the data were processed

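Whole-kidney RNA of 11 mice was hybridised to Affymetrix arrays. The authors processed the arrays with RMA (version not given in the sources used here) and deposited log2 expression values per Entrez gene, 16539 rows with 64 control rows, 3 of them without values, after what the study calls normalization and correction for batches in one step with its other arrays. The authors also deposited a Yes or No call per gene and strain for expression above a negative-control baseline.

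Quantile normalization (normalizeBetweenArrays) over the 16475 Entrez rows gave the common scale. It removes any true shift of most genes in one direction, and leaves processing effects on single genes in place. The strains were compared in limma 3.58.1 (lmFit, eBayes, R 4.3.3) without covariates, over the 14419 genes called Yes in at least 1 strain. A strain mean below the 95th percentile of genes called No there (5.42 in NZB/W, 5.03 in NZW/BXSB), or a No call, left only a lower bound of the fold, written "at least", or no fold. The fit was tested on simulated data with an even offset between the strains and few changed genes, as many higher as lower. In the real data 69.4% of tested genes were called, so that test cannot show how well the scaling works here. The p-values set the difference between strain means against the spread of these kidneys within the strains.

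RefSeq (GRCm38.p6) named 16229 genes by Entrez number, and 246 kept the deposited symbol. The build of the array annotation is not given in the sources used here, and coordinates belong to the promoter table alone.

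Named genes were the 9 members, every other immunoglobulin row, up to 4 genes with the smallest p of each of 11 lists, and the 5 genes most like Igkc and Ms4a1 over within-strain deviations. Pigr was named as well, because it is not a plasma cell gene, and so were the genes of the plasma cell list without a call. The members and lists were chosen with earlier results of these data known. Alternatives were the deposited scale, median centring, no filter on dim genes, robust fitting, an intensity trend, only genes called Yes in both strains, omission of each kidney or of NZB/W replicates 6 and 7, a replicate block and the study's fold limits. Quantile normalization over tested genes alone, the omission of the 3 kidneys low in Igkc, and the GAGGAA search were added after the data were seen.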

Additional observations from a re-analysis of the deposited data

Results flagged for a closer look

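In 4 of 50 groups of kidneys, 1 kidney stood apart from the rest of its strain. About 1 in 20 independent groups of normal values would pass the limit used. These groups are genes read in the same 11 kidneys and are not independent, so the count is not weighed against that rate. The measure is the gap between the extreme kidney and its nearest neighbour as a share of the group's range. Ms4a1 was at 4.53 in NZW/BXSB replicate 2 and at 4.68 to 4.71 in the other 3 (share 0.832), all at background level. Igha was at 9.37 in the same kidney and at 10.63 to 10.81 in the others (0.870). Ighv1-14 was at 4.78 in NZW/BXSB replicate 3 and at 4.55 to 4.58 in the others (0.871), also at background level. Iglc2 was at 6.33 in NZB/W replicate 6 and at 6.70 to 6.98 in the other 6 (0.571).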

How the results depend on the processing

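Of 175 values of the members under the alternatives, 170 kept direction and side of the threshold, 2 lost their call (Igj and Cd79b, both under the study's fold limits), 2 gained one and 1 turned, the last 3 all Pou2af1. Among the 17 other immunoglobulin rows, the count of higher genes went from 3 to 1 as deposited and to 1 under the study's fold limits, where the count of lower genes went from 10 to 5. Signs turned as deposited for Pou2af1 (-0.22), Igkv12-46 (-0.17), Iglc1 (-0.60), Iglc2 (-0.20) and Iglv1 (-0.37), after median centring for Ighv1-14 (0.11) and Igkv4-81 (0.27), and with quantile normalization over the tested genes alone for Igkv4-81 (0.10). The offset of -0.69 between the scales lies beyond each of the differences that turned as deposited. Leaving out 1 kidney moved Iglc1 between -0.079 and 0.19 and Igkv4-81 between -0.21 and 0.026, neither of them called.

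The labels number the kidneys within each strain. The deviations of kidneys with the same number had correlations of -0.06, 0.31, -0.06 and -0.11. So few pairs cannot show whether kidneys with the same number shared a run or batch. A replicate block over numbers 1 to 4 called 9280 genes in place of 10001, ended the calls of Ighg2b (adjusted p = 0.0546) and Ighm (adjusted p = 0.269) and of no member, and turned Igkv4-81 (0.16). This fit leaves out NZB/W replicates 5 to 7. Genes near background, Ms4a1, Pou2af1, Ighv1-14 and Igkv4-81 among them, have differences that signal over background limits.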
